A study of Mus musculus with 12 samples.

Results

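Metallothionein and inducible Hsp70 genes were followed in bone marrow KSL cells of mice 14 days after irradiation. Every probe set that the authors' deposited table of changed genes names as Mt1, Mt2, Hspa1a or Hspa1b was taken, which gave 4 genes with 6 of the 22626 probe sets measured. The table lists 178 probe sets higher and 276 lower after irradiation, and it names 325 genes alone. Mt1, Mt2 and Hspa1a have 1 probe set each and Hspa1b has 3. The table holds probe sets that differed at least 2-fold at an unadjusted p under 0.05 between the doses on these same arrays. The difference between the doses therefore chose the members and is given as a description, without a test.

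The 550 cGy group had 6 arrays of KSL cells from C57Bl/6 mice irradiated with a cesium source, and the 0 cGy group had 6 arrays from non-irradiated C57Bl/6 mice. Mice of both groups were raised to 10 weeks of age, and they carry no other treatment or allele in the labels. KSL cells are sorted as Kit-positive, Sca-1-positive and lineage-negative, a gate for hematopoietic stem cells and the progenitors closest to them. The comparison asks how regenerating stem and progenitor cells differ from those at steady state. The labels do not say whether the arrays came from separate mice or from pools, so the spread between arrays may be technical. No probe set is named for either sorting marker gene (Kit and Ly6a), so the gate could not be checked against them. Array medians lay between 6.94 and 7.01 on the log2 scale, and precision is limited by how many arrays there were.

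Metallothioneins are small cysteine-rich proteins that bind zinc, copper and cadmium. Their genes are induced by zinc and other metals through the transcription factor MTF-1, which binds metal response elements in their promoters, and also by glucocorticoids and oxidative stress. Inducible Hsp70 is an ATP-dependent chaperone of unfolded proteins, and its genes are among the main targets of the heat shock factor HSF1, which binds inverted repeats known as heat shock elements. Its level is low in most unstressed cells and rises with heat, proteotoxic stress and cell handling.

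Each pair of genes lies side by side on its chromosome. In the RefSeq annotation of GRCm38.p6, Mt2 lies at chr8:94172618-94173567 and Mt1 at chr8:94178883-94180327, both on the plus strand, with 5315 bases between them. Hspa1b lies at chr17:34956429-34959238 and Hspa1a at chr17:34969359-34972156, both on the minus strand, with 10120 bases between them. The promoter windows are shown because the members of a pair moved together and because they show how alike the promoters of both Hsp70 genes are. Each window holds 250 bases before a RefSeq transcript start and 30 after it, printed 5′ to 3′ on the gene's strand. For Mt1 that start lies 206 bases downstream of the start in the gene annotation. Capitals mark the core of the metal response element in Mt1 and Mt2, searched as TGCACNC and TGCGCNC, and in the Hsp70 genes a heat shock element pair, searched as GAANNTTC and TTCNNGAA, on both strands.
Mt1, chr8:94178839-94179118, plus strand: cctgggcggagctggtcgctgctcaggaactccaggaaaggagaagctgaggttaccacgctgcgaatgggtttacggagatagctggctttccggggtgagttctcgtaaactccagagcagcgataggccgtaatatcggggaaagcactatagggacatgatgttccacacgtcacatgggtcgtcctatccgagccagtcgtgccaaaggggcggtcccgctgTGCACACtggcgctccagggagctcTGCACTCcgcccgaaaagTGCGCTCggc
Mt2, chr8:94172368-94172647, plus strand: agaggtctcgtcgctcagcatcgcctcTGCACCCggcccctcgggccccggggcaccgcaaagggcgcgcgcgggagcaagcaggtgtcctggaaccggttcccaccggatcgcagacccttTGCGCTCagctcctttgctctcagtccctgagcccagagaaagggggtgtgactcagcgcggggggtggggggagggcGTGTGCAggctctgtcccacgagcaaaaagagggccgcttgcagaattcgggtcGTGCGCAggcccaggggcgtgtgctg
Hspa1a, chr17:34972127-34972406, minus strand: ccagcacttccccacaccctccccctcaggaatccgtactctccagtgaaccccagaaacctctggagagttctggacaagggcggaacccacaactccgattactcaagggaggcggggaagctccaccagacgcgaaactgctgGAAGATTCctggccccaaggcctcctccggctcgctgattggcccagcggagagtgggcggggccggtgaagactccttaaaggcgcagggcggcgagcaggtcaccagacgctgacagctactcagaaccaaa
Hspa1b, chr17:34959209-34959488, minus strand: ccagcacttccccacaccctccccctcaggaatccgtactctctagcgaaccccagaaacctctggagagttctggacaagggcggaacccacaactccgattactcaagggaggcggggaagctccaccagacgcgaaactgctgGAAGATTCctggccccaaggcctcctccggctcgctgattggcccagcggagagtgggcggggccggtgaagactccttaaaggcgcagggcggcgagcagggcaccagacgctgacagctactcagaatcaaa

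The Mt1 window held 3 matches to the metal response core and the Mt2 window held 4, while the windows of Hspa1a and Hspa1b held 0. Of 32851 RefSeq promoter windows of the same length, 1.73% held at least 3 such matches and 0.405% at least 4. The Hsp70 windows each held 1 match to GAANNTTC, at positions -104 to -97 from the start, a form found in 7.38% of all windows. They held 0 matches to TTCNNGAA, found in 8.03%. At least 1 match to either form was found in 14.2% of windows. Each also held a CCAAT box on the opposite strand, a motif found in 36.1% of windows. TATAAA, found in 13.1% of windows, matched in 0 of the 4. These matches describe the letters of the windows and do not show binding.

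The Hsp70 windows were identical at 276 of 280 bases (98.6%). Counted from 1 at the 5′ end of the window, with the base of Hspa1a first, the differences were C44T, T47C, T249G and C276T. The Mt1 and Mt2 windows matched at 67 of 280 positions (23.9%) when laid side by side without gaps. They were not aligned, and the start used for Mt1 lies 206 bases downstream of its gene start. That count therefore cannot show how alike the metallothionein promoters are. With genes this alike, hybridisation of RNA from Hspa1a to probe sets named Hspa1b, and the reverse, was not tested. By the usual naming of such probe sets, the suffix _x_at marks probes that can also match other transcripts, and _s_at marks probes shared by several transcripts. One probe set of Hspa1b carries the first suffix and that of Mt1 the second.

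**Figure D1:**
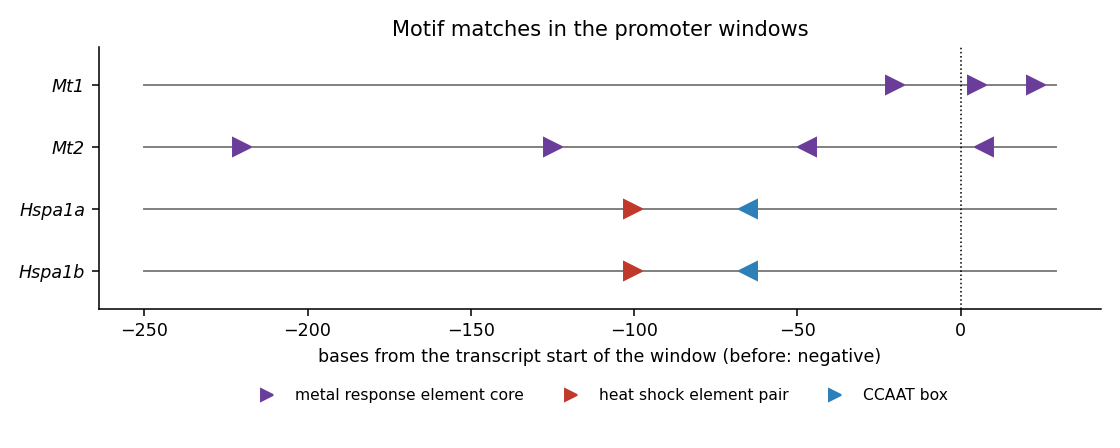
Positions of motif matches in the 4 promoter windows, in bases from the transcript start of each window. Triangles pointing right lie on the strand of the gene and those pointing left on the opposite strand. Mt1 and Mt2 hold 3 and 4 metal response cores, and both Hsp70 genes hold a heat shock element pair and a CCAAT box at the same positions.

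All 6 probe sets were higher after irradiation, by 3.34-fold to 7.06-fold. Mt2 had the largest ratio, followed by Hspa1b in its brightest probe set (5.496-fold) and Mt1 (5.31-fold). Their median log2 difference was 2.29, against a median of 0.01 over all probe sets. By limma, with p adjusted by Benjamini-Hochberg and a threshold of 0.05, 5 of the 6 were called higher, as were 5.87% of all probe sets. Nothing is read from that count, from the ratios or from their median, since the same difference chose the members. The lowest ratio among them was 3.34. Among higher probe sets the lowest ratio inside the limits of the authors' table was 2.004. The highest outside them at an unadjusted p under 0.05 was 1.991. A larger share of cells that express a gene and more of its RNA per cell cannot be told apart in sorted populations measured in bulk.

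Mt1 (1422557_s_at) had log2 values from 10.99 to 11.93 with a median of 11.76 in the irradiated arrays, against 7.74 to 10.53 with a median of 9.19 in the controls. The groups did not overlap, and each irradiated value exceeded every control value, with a gap of 0.46 between the groups. Such separation was present in 3.00% of all probe sets. The mean was 11.58 ± 0.42 after irradiation and 9.17 ± 1.28 in controls (SD, n = 6 each), a log2 difference of 2.41. All 3 of control replicates 1 to 3 (7.74 to 8.40) lay below control replicates 4 to 6 (9.98 to 10.53), as they did for Mt2, and 15.0% of all probe sets had that order.

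Mt2 (1428942_at), the neighbouring metallothionein, ran from 10.82 to 12.96 with a median of 12.39 in the irradiated arrays, against 7.38 to 11.03 with a median of 9.29 in the controls. The groups overlapped, since irradiated replicate 3 (10.82) lay below control replicates 4 (10.85) and 5 (11.03). The mean was 12.11 ± 0.85 after irradiation and 9.29 ± 1.56 in controls, a log2 difference of 2.82.

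Hspa1a (1452388_at), one of the inducible Hsp70 genes, ran from 6.10 to 8.91 with a median of 8.43 in the irradiated arrays, against 5.17 to 6.89 with a median of 6.31 in the controls. Irradiated replicate 2 (6.10) lay among the controls, and the other 5 irradiated arrays lay above all of them. The mean was 8.07 ± 1.03 after irradiation and 6.22 ± 0.62 in controls, a log2 difference of 1.85.

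The brightest probe set of Hspa1b (1452318_a_at) ran from 8.37 to 10.61 with a median of 9.80 in the irradiated arrays, against 4.83 to 8.12 with a median of 7.68 in the controls. The groups did not overlap, with a gap of 0.25, and the log2 difference of their means was 2.46. The other probe sets, 1427127_x_at and 1427126_at, had log2 differences of 2.17 and 1.74. The first ran from 6.26 to 9.37 after irradiation, against 3.999 to 6.95 in controls, and the second from 5.71 to 9.05, against 4.31 to 7.33. In 1427127_x_at, irradiated replicate 2 lay among the controls and the other 5 irradiated arrays lay above all of them, and the same held for 1427126_at. Of the 6 probe sets, 1427126_at was the one not called higher.

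**Figure D2:**
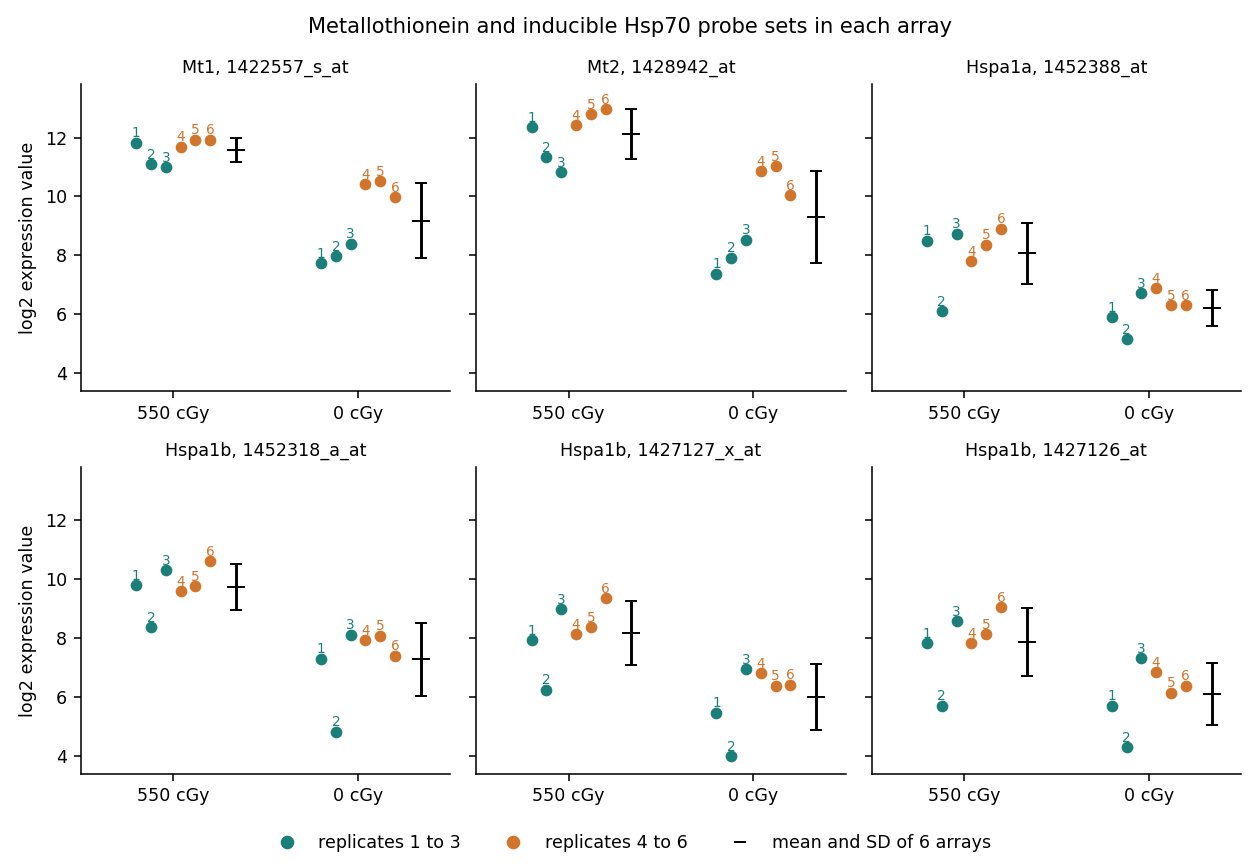
Log2 expression values of the 6 probe sets in each array, with irradiated arrays on the left and controls on the right of each panel. Points are arrays labelled with their replicate number, and the black bars give the mean and SD of 6 arrays. In both metallothioneins control replicates 1 to 3 lie below control replicates 4 to 6, and in all 4 Hsp70 probe sets replicate 2 is the lowest array at each dose.

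The arrays of this study fall into replicates 1 to 3 and replicates 4 to 6, which do not overlap along the second principal component over all probe sets (16.5% of the variance). Along the first (35.8%) the doses do not overlap. The labels name no batch, and the split was chosen because of that separation, so a p for it is not independent of the choice. A difference between these sets does not enter the difference of dose means that chose the members, so it was tested for them. It does enter the spread behind the unadjusted p that also chose them, so the test is not fully independent of that choice.

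Both metallothioneins were lower in replicates 1 to 3 than in replicates 4 to 6. For Mt1 the irradiated means were 11.31 ± 0.45 in replicates 1 to 3 and 11.85 ± 0.14 in replicates 4 to 6, and the control means were 8.04 ± 0.34 in replicates 1 to 3 and 10.31 ± 0.29 in replicates 4 to 6 (SD, n = 3 arrays each). Averaged over the doses, the level of Mt1 differed by -1.41 (SE 0.17, limma adjusted p = 0.00151). For Mt2 the irradiated means were 11.50 ± 0.79 in replicates 1 to 3 and 12.73 ± 0.28 in replicates 4 to 6, and the control means were 7.95 ± 0.58 and 10.64 ± 0.52 in those same sets. By this measure the level of Mt2 differed by -1.96 (SE 0.28, adjusted p = 0.00360). Lower estimates were rare, since 11 of the 22626 probe sets had a lower estimate than Mt2, and 39 a lower one than Mt1. Of all probe sets, 6.63% were called lower in replicates 1 to 3.

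The Hsp70 probe sets had level differences of -0.98 to -0.58 between the replicate sets, at adjusted p of 0.243 to 0.415, and 0 of the 4 were called at p-values before adjustment of 0.0873 to 0.211. These differences rested on replicate 2. With it left out of both doses, they were 0.0315 for Hspa1a and -0.25 to -0.014 for Hspa1b. Over all arrays the metallothioneins and Hsp70 were not shown to differ in this respect. The mean of the metallothionein probe sets differed by -1.68 and that of the Hsp70 probe sets by -0.79, a gap of -0.89 (exact permutation test within doses, two-sided p = 0.14, where 0.005 is the smallest p that its 400 arrangements allow). Without replicate 2 at both doses the means differed by -1.63 for the metallothioneins and -0.066 for Hsp70, a gap of -1.56 (exact permutation p = 0.02, smallest possible 0.01). Replicate 2 was left out because of its Hsp70 values, so that p is not independent of the choice.

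The size of the irradiation difference was also set against the replicate sets. For Mt1 the irradiated arrays were higher by 3.27 on the log2 scale (9.67-fold) in replicates 1 to 3 and by 1.54 (2.91-fold) in replicates 4 to 6. The difference of 1.73 (SE 0.34) had an unadjusted p of 0.000302 and a limma adjusted p of 0.0797, and so missed the threshold that 0.133% of all probe sets passed. It passed at 0.0393 with a trended and robust prior and at 0.0478 without irradiated replicate 3. In every other alternative run it missed the threshold, with limma adjusted p up to 0.207 with an array left out and 0.250 with the replicate block. For Mt2 the differences were 3.56 (11.8-fold) and 2.08 (4.24-fold), 1.47 apart (SE 0.57, adjusted p = 0.355). The Hsp70 probe sets were higher by 1.60 to 2.74 in replicates 1 to 3 and by 1.86 to 2.17 in replicates 4 to 6. Their differences lay between -0.28 and 0.57, at adjusted p of 0.889 to 0.998 and SE of 0.87 to 1.10, so that gaps of the size seen in Mt1 were not detectable for them at this spread.

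**Figure D3:**
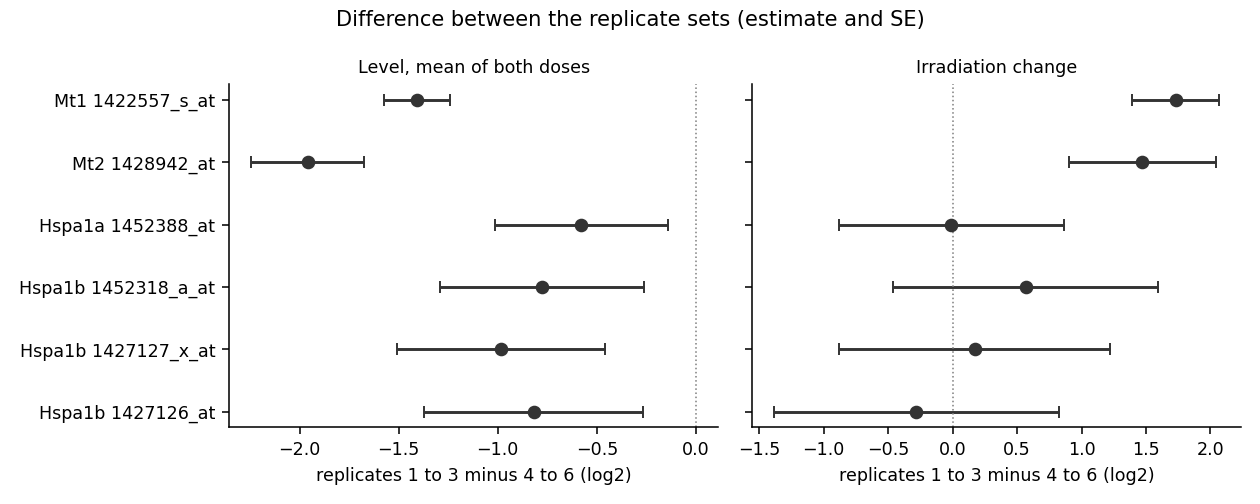
Differences between replicates 1 to 3 and replicates 4 to 6 for each probe set, on the log2 scale, with limma estimates as points and SE as bars. The left panel shows the level averaged over both doses, where Mt1 (-1.41) and Mt2 (-1.96) lie farthest below 0. The right panel shows the difference of the irradiation changes, where Mt1 (1.73) and Mt2 (1.47) lie above 0 and the Hsp70 bars span 0.

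In the Hsp70 genes replicate 2 stood lowest at both doses. It was the lowest array of its dose in all 4 probe sets, at 5.71 to 8.37 after irradiation and at 3.999 to 5.17 in controls. For the brightest Hspa1b probe set the value was 8.37 after irradiation and 4.83 in controls, where the nearest control stood at 7.31. Without replicate 2 at both doses, the log2 differences were 2.04 for Hspa1a and 1.81 to 2.24 for Hspa1b, close to those over all arrays. Same-numbered arrays are not shown to be paired by the labels or by their values over all probe sets.

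Members of a pair varied together among arrays of the same dose. Over the 6 irradiated arrays Mt1 and Mt2 correlated with r = 0.98 (exact permutation test, two-sided p = 0.00417, adjusted p = 0.0130 over 7 correlations) and rho = 0.94 (exact p = 0.0167, adjusted p = 0.0583). Without the 2 arrays farthest from the median of Mt1, r was 0.82 over 4 arrays. The call was lost without irradiated replicate 2 (r = 0.99, exact permutation adjusted p = 0.0875) and without irradiated replicate 6 (r = 0.98, adjusted p = 0.0583). For Mt2 irradiated replicates 1 to 3 (10.82 to 12.36) also lay below irradiated replicates 4 to 6 (12.42 to 12.96). The permutation did not keep the replicate sets apart, so r and its p partly hold the difference between them. In the controls Mt1 and Mt2 fell into 2 separate clusters, replicates 1 to 3 and 4 to 6, of 3 arrays each, so no correlation is given there.

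Hspa1a and the mean of the Hspa1b probe sets correlated with r = 0.97 over the irradiated arrays (exact permutation p = 0.00417, adjusted p = 0.0130, rho = 0.94 with exact p = 0.0167 and adjusted p = 0.0583). Over the controls r was 0.97 as well (exact p = 0.00556, adjusted p = 0.0130, rho = 0.89 with exact p = 0.0333 and adjusted p = 0.0778). Without the 2 arrays farthest from the median of Hspa1a, r was 0.92 after irradiation and 0.99 in controls, over 4 arrays each. The call after irradiation was lost without replicate 2 (r = 0.82, exact permutation adjusted p = 0.214) and without replicate 6 (r = 0.97, adjusted p = 0.0583). That in controls was lost without replicate 2 (r = 0.92, adjusted p = 0.117) and without replicate 1 (r = 0.97, adjusted p = 0.0778). Among the 4 Hsp70 probe sets, r lay between 0.94 and 0.99 over the irradiated arrays and between 0.91 and 0.98 over the controls. Sets of 3 arrays are too few for a correlation within replicates 1 to 3 or 4 to 6.

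Between the families the relation depended on single arrays. Over the irradiated arrays the metallothionein and Hsp70 genes had r of 0.35 to 0.46 and rho of 0.26 to 0.43 in 4 pairs (exact permutation p = 0.403 to 0.521 for r and 0.419 to 0.658 for rho, adjusted p = 0.521 for r and 0.580 to 0.658 for rho). Without irradiated replicate 2, r lay between -0.20 and -0.12, and without irradiated replicate 3 between 0.94 and 0.98. Replicate 3 combined the lowest metallothionein values after irradiation with high Hsp70 values. Without the 2 arrays farthest from the metallothionein median, r was 0.66 to 0.87 over 4 arrays.

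**Figure D4:**
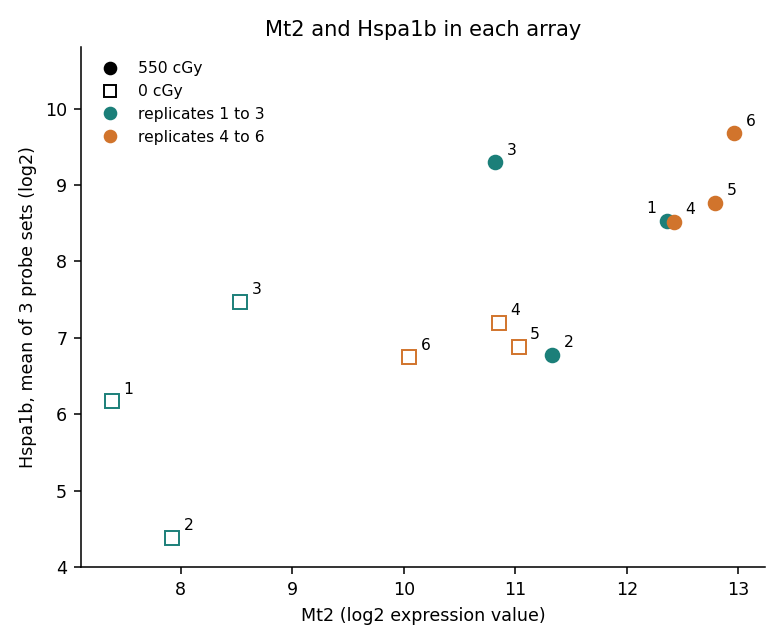
Log2 values of Mt2 against the mean of the 3 Hspa1b probe sets, with each array labelled by its replicate number. Filled circles are irradiated arrays and open squares controls. Irradiated replicates 2 and 3 lie off the other 4, and control replicates 1 to 3 lie left of control replicates 4 to 6.

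The genes whose pattern was most like that of the metallothioneins were taken from the 321 other genes that the authors' table names alone. Likeness was Pearson's r between deviations from the dose means over all 12 arrays, given as a description. The 5 highest were Ahsp, a chaperone of alpha-hemoglobin (r = 0.97), Atp1b2, a beta subunit of the sodium-potassium pump (0.96), Epdr1 (0.96), Ifi30, a lysosomal thiol reductase (0.94), and Ces2g, a carboxylesterase (0.93). All points share the separation of the replicate sets. With that separation removed, by deviations from the means of dose and replicate set, r was 0.96 for Ahsp, 0.87 for Atp1b2, 0.98 for Epdr1, 0.72 for Ifi30 and 0.86 for Ces2g. The order then changed, and Epdr1 and Ahsp stayed among the 5 highest, with Il1rl1 (0.93), Blvrb (0.91) and Slc14a1 (0.90) in place of the other 3.

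Ahsp ran from 10.68 to 12.17 in the irradiated arrays, against 6.72 to 8.05 in control replicates 1 to 3 and 8.81 to 10.32 in control replicates 4 to 6. By their means these groups stood in the order seen in Mt1 and Mt2. Epdr1 ran from 7.97 to 9.40 after irradiation, against 5.43 to 6.41 in control replicates 1 to 3 and 6.80 to 7.45 in control replicates 4 to 6.

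For Hsp70 the highest r were lower, and that difference was not tested. The 5 highest were Cdr2 (r = 0.76), Ccne1, a cyclin of S phase entry (0.75), Rbm39, an RNA-binding splicing factor (0.69), Acp5, a tartrate-resistant acid phosphatase (0.68), and Grb10, an adaptor of receptor tyrosine kinases (0.67). With the replicate sets removed, r was 0.71, 0.69, 0.74, 0.59 and 0.62 in the same order. Of the 5 highest by that measure only Rbm39 was shared, and Carns1 (0.82), Hdgfl3 (0.73), Zc3h12a (0.72) and Ebi3 (0.72) took the other places. Rbm39 was lower after irradiation (8.75 ± 0.65, against 10.07 ± 0.23 in controls, SD, n = 6 each), opposite to Hsp70, although it deviated with Hsp70 among arrays of a dose. Grb10 averaged 8.50 ± 0.47 after irradiation and 7.45 ± 0.15 in controls in this probe set. All 5 genes had their lowest irradiated value in replicate 2, as did the Hsp70 probe sets. Replicate 2 deviated most in the Hsp70 profile that chose these genes, so the choice favoured this.

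**Figure D5:**
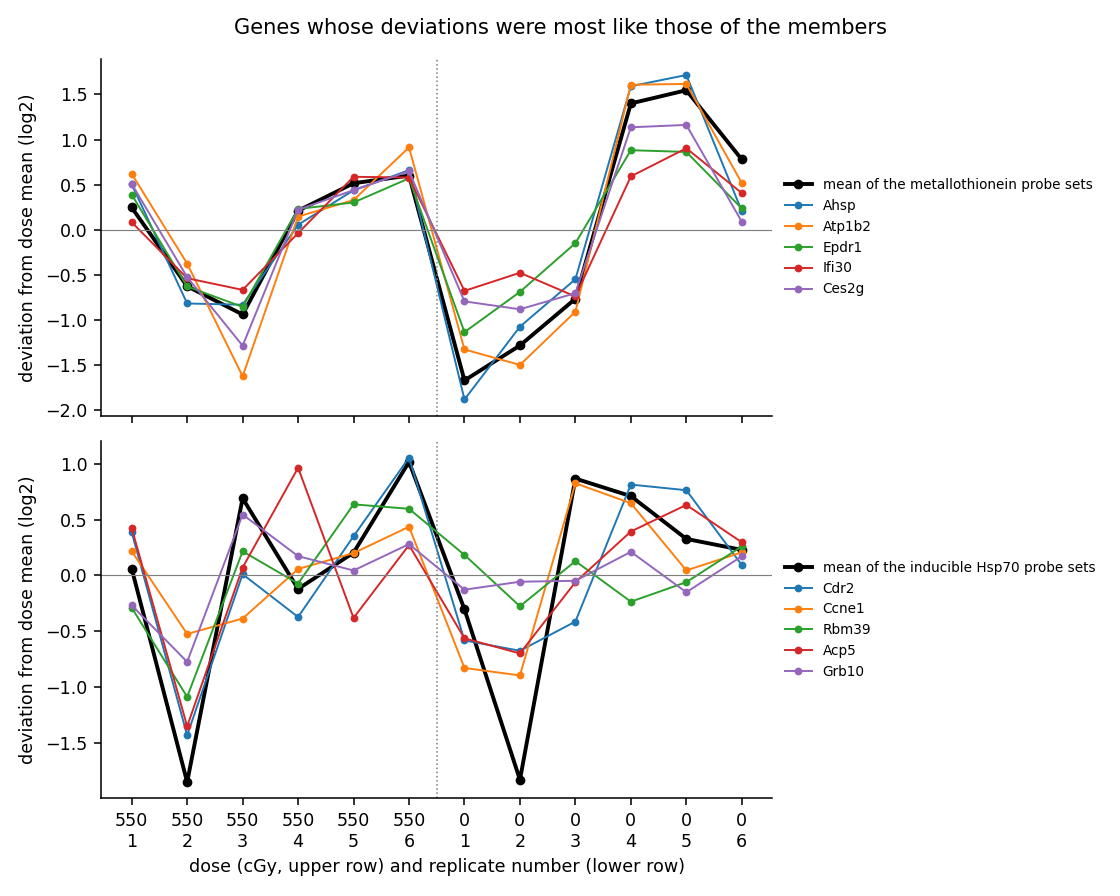
Deviations from the dose mean, on the log2 scale, in each array, for the mean of the metallothionein probe sets (upper panel) and of the Hsp70 probe sets (lower panel) with the 5 genes most like each. Lines join the points of a gene and imply no order of replicates. The metallothionein genes and their 5 neighbours (r = 0.93 to 0.97) follow one profile, and those of Hsp70 (r = 0.67 to 0.76) follow it less closely.

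Other genes of the same pathways were counted in the authors' table, whose genes were selected on these same arrays and are not independent evidence of a direction. Their limma calls and p between the doses share that selection and are given as a description. Over all probe sets 11.3% were called in either direction and 5.87% higher. Genes outside the table carry no name here, so their number on the array is not known. Of 30 other heat shock and chaperone genes, among them Hspa8, Hsph1, Dnajb1 and Hsp90aa1, 0 were in the table. Of 24 oxidative stress genes, among them Nqo1, Gclm and Txnrd1, 0 were in it. The table covers only 451 of the 22626 probe sets measured, so nothing is read from these counts of 0.

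Of 24 genes of metal handling 4 were in the table, and in limma 2 rose, 1 fell and 1 missed the threshold. Slc40a1, which encodes the iron exporter ferroportin, rose 3.39-fold (adjusted p = 0.0495) and Slc11a2, a divalent metal importer, 2.30-fold (adjusted p = 0.00330). Slc30a4, a zinc transporter, fell 2.96-fold (adjusted p = 0.0124). Tfrc, the transferrin receptor, had a ratio of 2.17 (adjusted p = 0.0596). All 4 were lower in replicates 1 to 3 in their level over both doses, by log2 estimates of -1.62 for Slc40a1, -1.01 for Tfrc, -0.87 for Slc30a4 and -0.54 for Slc11a2 (limma adjusted p = 0.0103, 0.0129, 0.0440 and 0.0255 in that order). Over all probe sets 6.63% were called lower in replicates 1 to 3. That share was not counted within the authors' table, through which these 4 were chosen.

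Of 14 glucocorticoid response genes 3 were in the table and all 3 fell, Il1r2, a decoy receptor of interleukin 1, by 3.56-fold, and the circadian genes Per1 by 2.35-fold and Per2 by 2.001-fold. Of 24 immediate early genes 12 were in the table, of which 10 fell and 2 missed the threshold. Immediate early genes respond within minutes to stimuli, cell handling included, and those named here encode transcription factors and, in Dusp2, a phosphatase. Nr4a3 was 3.73-fold, Nr4a1 2.87-fold, Dusp2 2.71-fold, Klf4 2.35-fold and Egr1 2.23-fold lower, and Nr4a2 had a ratio of 0.414 (adjusted p = 0.110). Their part in the Hsp70 values was not tested.

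Markers of other cells also differed between the doses, in both directions. They were counted in the same table, so their calls too are a description and no test. Of 20 erythroid markers 14 were in the table, of which 11 rose, 0 fell and 3 missed the threshold, with a median log2 difference of 1.63. The summed linear level of the 14 ranged from 5539.8 to 14502 in the irradiated arrays, against 1888 to 2023 in control replicates 1 to 3 and 2987 to 4659 in control replicates 4 to 6. These ranges run in the same order as those of Mt1, and their part in the metallothionein values was not tested. Tfrc is counted both here and under metal handling. Hba-a1, Hbb-b1, Car1, Car2, Alas2 and Epb42 were not named in the table. Of 8 mast cell and basophil markers 2 were in the table and rose. Their sum ranged from 199.6 to 375 after irradiation. It was 76.7 to 109 in control replicates 1 to 3 and 130 to 186 in control replicates 4 to 6. Of 8 megakaryocyte markers 4 were in the table, of which 2 rose and 2 fell. Their sums were 1951 to 2834 after irradiation, against 3719 to 4959 and 2905 to 3144 in the same control sets in that order. Of 12 macrophage and neutrophil markers 3 were in the table, of which 1 rose, 1 fell and 1 missed the threshold. Their sums were 1341 to 2339 after irradiation, against 440.3 to 634 and 1400 to 1588. Of 8 lymphoid markers 3 were in the table and fell. Their sums were 617 to 1727 after irradiation, against 4518 to 5216 and 2982 to 3914. The mast cell and basophil sums thus shared the order of the erythroid sums, and the megakaryocyte and lymphoid sums ran in the reverse order. The part of these cells in the values of the members was not tested either.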

How the data were processed

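Expression was measured by array in 6 irradiated and 6 control samples, grouped by title. The authors deposited log2 expression values, 1 per probe set and array. The submitters' processing notes name only Partek. Its role and version, and any normalization of the values, were not given in the sources used here. Their table of changed genes holds, per the file headers, the gene symbol, a p-value without adjustment, the ratio of the doses on the linear scale, a signed fold, and scores (F statistics and sums of squares). Its log2 ratios differed from those recomputed by at most 2.36e-05. Names came from that table, where 433 probe sets of the value table name 1 gene, with symbols updated from RefSeq (GRCm38.p6) for 21 of 422 matched by gene ID. For genes other than the members the brightest probe set was used.

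All 22626 probe sets were fitted with limma 3.58.1 (R 4.3.3), by dose or by dose, replicate set and their interaction, with p adjusted by Benjamini-Hochberg over all of them, after tests of the script on simulated data. Correlations used exact permutation tests (SciPy 1.17.1).

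The members and lists were chosen with earlier results of these data known. Named genes were the member probe sets, the 5 genes most like each family, and up to 6 table genes of each pathway list. The lists covered heat shock, metal handling, oxidative stress, glucocorticoid response and immediate early genes, and markers of erythroid, mast and basophil, megakaryocytic, macrophage and neutrophil, lymphoid and KSL cells. The alternatives tried are given with their effect in the closing section. Those without replicate 2 at both doses, the likeness without the replicate sets and all those of the gap between the families were added after seeing the data.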

Additional observations from a re-analysis of the deposited data

Results flagged for a closer look

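Control replicate 2 stood apart in the brightest Hspa1b probe set (1452318_a_at), at 4.83 on the log2 scale, with the nearest of the other controls at 7.31, a gap of 0.753 of the range of the group. Irradiated replicate 2 stood apart in the Hspa1b probe set 1427126_at, at 5.71, with the nearest irradiated array at 7.84, a gap of 0.637 of the range. Both gaps were above Dixon's critical value for 6 samples. Chance gives such a gap in about 1 of 20 groups, and 12 groups were checked. The 4 Hsp70 probe sets are not independent of each other, and without replicate 2 at both doses their log2 differences were 1.81 to 2.24.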

How the results depend on the processing

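The log2 differences of the 6 member probe sets kept their direction and stayed within 1 SD, pooled over both doses, of the reported value in all 120 alternatives run (quantile normalization, array medians subtracted, array weights, the replicate block, group medians, each replicate set alone, each array left out, and replicate 2 left out of both doses, the last added after seeing the data). That SD is wide, 0.85 to 1.26, since it holds the spread between the replicate sets, and Mt1 came close to it with 3.27 in replicates 1 to 3 and 1.54 in replicates 4 to 6, against 2.41 and an SD of 0.95. With each array left out in turn they ranged from 2.12 to 2.68 for Mt1, 2.44 to 3.17 for Mt2, 1.64 to 2.25 for Hspa1a, and 1.97 to 2.73, 1.77 to 2.55 and 1.38 to 2.17 for the Hspa1b probe sets in order of brightness. The lower level of Mt1 and Mt2 in replicates 1 to 3 passed in every alternative run, at limma adjusted p of 0.000295 to 0.00896 for Mt1 and 0.00169 to 0.0153 for Mt2. The adjusted p of the Mt1 difference between the irradiation changes ran from 0.0393 to 0.250.

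Counts over all probe sets, also tried without the dimmest 40% of probe sets, moved more. Those higher after irradiation, 1329 in all, ranged from 740 to 1531 with an array left out, and were 2099 with the replicate set as a term, 539 in replicates 1 to 3, 720 in replicates 4 to 6 and 876 without replicate 2. Those lower, 1238 in all, ranged from 773 to 1303, and were 601 and 738 in the replicate sets alone. With array medians subtracted, 1765 were higher and 1081 lower. The 2694 probe sets whose level differed between the replicate sets ranged from 1555 to 3099 with an array left out. The 30 whose irradiation change differed between them ranged from 4 to 129, and were 96 with a trended and robust prior, 47 with array weights and 0 with the replicate block in limma, where 2428 had an unadjusted p under 0.05. The replicate block left the member differences as they were. With each replicate number present at both doses it cannot change them, so among the 120 alternatives it is no check of them. Same-numbered arrays of both doses correlated weakly in their deviations (r of 0.01 to 0.29, and 1 of 6 numbers correlated best with its own), so the numbers are not taken as pairs.

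Some estimates of Hsp70 turned round. The level difference of Hspa1a, -0.58 over all arrays, was 0.0315 without replicate 2 at both doses. The gap between the families in that difference was -1.24 to -0.50 with an array left out (exact permutation p = 0.06 to 0.32). The Hspa1a difference of irradiation change, -0.01 over all arrays, was 0.0415 with quantile normalization, 0.0279 with array medians subtracted, 0.45 without replicate 2, and -0.49 to 0.83 with an array left out. Those of the Hspa1b probe sets, 0.57, 0.17 and -0.28 over all arrays, were -0.39 to 1.25, -0.57 to 0.91 and -1.02 to 0.55 with an array left out. None of these estimates of single probe sets passed the threshold. For correlations with an array left out, the range of r was 0.97 to 0.99 for Mt1 with Mt2, 0.82 to 0.99 for Hspa1a with Hspa1b after irradiation and 0.92 to 0.99 in controls, and for each of these pairs 2 of 6 omissions ended the call. Between the families it was -0.16 to 0.98 for Mt1 with Hspa1a, -0.20 to 0.94 for Mt1 with Hspa1b, -0.17 to 0.95 for Mt2 with Hspa1a and -0.12 to 0.98 for Mt2 with Hspa1b. Without the 2 farthest arrays r was 0.815, 0.918 and 0.994 for the pairs within a family, and 4 arrays are too few for the adjusted threshold. The cause of these shifts was not tested.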
